A study of Mus musculus with 2 samples.

Results

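Vascular, lymphatic and angiogenic genes were described in the mouse uterus between implantation sites, the stretches of the uterine wall where no embryo is attached. The 41 genes came from a list chosen with earlier results of these data known. It held 20 pan-endothelial genes, 5 lymphatic genes, 3 pericyte genes, 7 angiogenic ligands and the 2 neuropilin co-receptors. The hypoxia-inducible factor gene Epas1 and 3 endothelin genes completed it. Every probe set that the platform annotation gave to a single listed gene was examined. Counts and medians took, for each gene, the probe set of highest mean log2 signal. Of the 41 genes, 38 had a probe set of a single gene, out of 12393 genes represented in this way on the array. Ecscr, Mmrn1 and Ednra had none, so no signal is given for them.

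The samples were total RNA from inter-implantation tissue of control females and of females homozygous for loss of Cbs (labelled Cbs null), which encodes cystathionine beta-synthase, an enzyme that removes homocysteine. Both groups were C57Bl/6J X OLA129 females, 4 months old and on day 8 of pregnancy. Each group was hybridised to 1 Affymetrix array, and the labels leave unsaid if animals were pooled and what genotype the control females carried. With 1 array per group there is no replicate check, no test was possible and no p-value is given. The deposited signals of the arrays had medians of 74.55 and 75.6. Cbs itself read 79.8 in control and 42.6 in Cbs null tissue, the latter just under the floor of 43.2 described below, which fixed its direction. Its other probe set read 39.8 and 25.1, under that floor on both arrays, and gave no usable ratio. Whether either probe set lies in the disrupted part of the gene is not known.

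Blood vessels are lined by endothelial cells, whose growth is driven by vascular endothelial growth factors acting on tyrosine kinase receptors. Angiopoietins and the receptor Tek steady or loosen the vessel wall, and platelet-derived growth factor B from the endothelium holds pericytes to it. In the pregnant uterus vessels grow and become leaky around each implantation site, and lymphatic vessels drain the outer wall.

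Each signal below a floor of 43.2, the 40th percentile over the pair of arrays, was set to that value, log2 ratios were taken as Cbs null over control, and a gene was called measured when it exceeded the floor on at least 1 array. Of the 38 genes, 35 were measured, 33 of them on both arrays. Erg (7.8 in control and 1.4 in Cbs null), Prox1 (12.9 and 7.1) and Angpt1 (4.1 and 1.5) lay below the floor on both arrays and had no usable ratio. Pgf and Epas1 were above it in the control sample only, so they were measured only through the group in which they were higher and their direction was fixed by that. Paired probe sets of 2757 genes gave an SD of 0.22 for a single log2 ratio, called the technical SD. It covers measurement within the arrays, and not variation between mice or from RNA preparation, labelling and hybridisation that both probe sets share.

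Most vascular genes differed little between the samples. None of the 35 measured genes was 2-fold apart, where 0.797% of the 8410 measured genes on the array were at least 2-fold higher in the Cbs null sample and 0.713% at least 2-fold lower. At 1.5-fold, Vwf was higher, against 3.64% of all measured genes, and Plvap and Ednrb were lower, against 3.41%. As 1 and 2 genes of 35, these counts lay near those shares. The median log2 ratio was -0.14 over the 35 genes, -0.11 over the 33 above the floor on both arrays and 0.02 over all measured genes. Of the 35, 22 lay below 0 (62.9%), compared with 46.5% of all measured genes, and 18 were within 1 technical SD of 0 (51.4%, compared with 60.6% of all measured genes). In tissue samples of this kind, fewer cells of a type and less RNA per cell cannot be told apart.

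**Figure D1:**
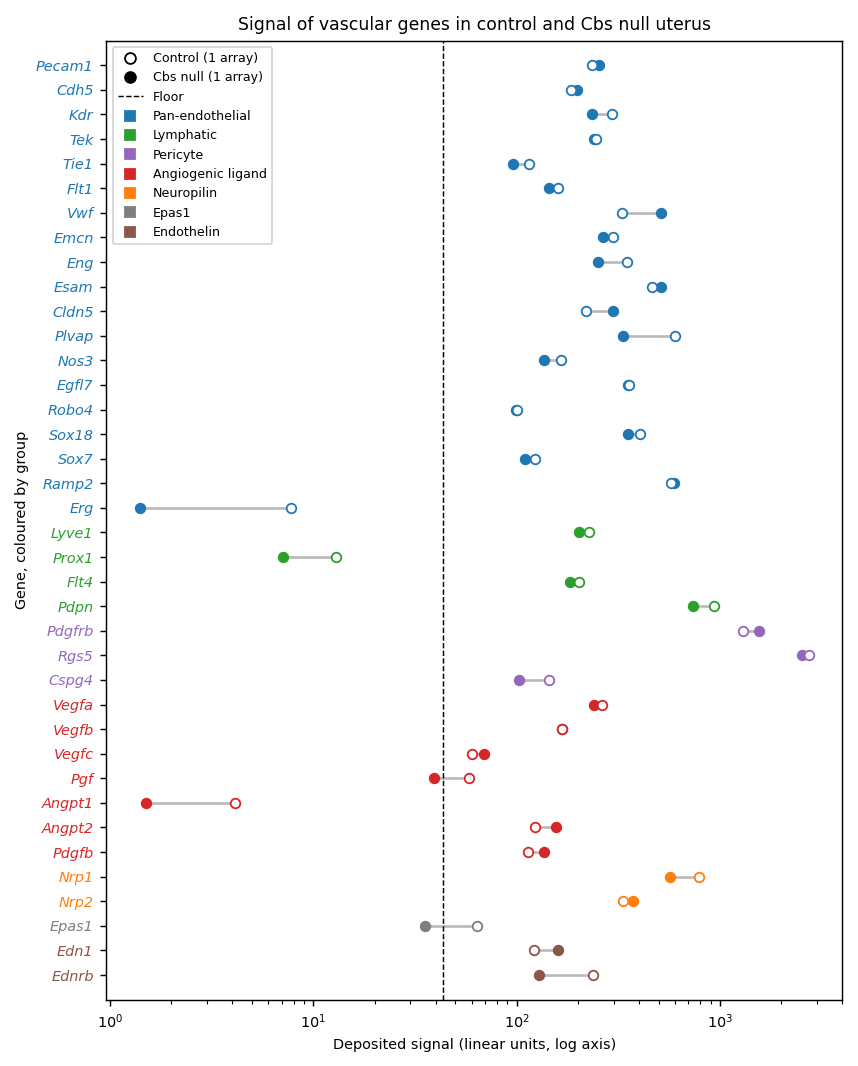
Deposited signal of the 38 genes on the array (log axis), with open circles for the control array and filled circles for the Cbs null array, coloured by gene group; the dashed line is the floor of 43.2. For most genes the circles nearly touch, Plvap and Ednrb lie lower and Vwf higher in the Cbs null sample, and Erg, Prox1 and Angpt1 lie left of the floor on both arrays.

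Sequence from the promoters of these genes was available for 25 of the 41 genes, in 32 windows of 250 bases before to 50 bases after a RefSeq transcript start (build GRCm38.p6). Factors of the ETS family act in endothelial cells, so their core, AGGAAG or CGGAAG, was searched on both strands. It was present in 8 of 14 windows of pan-endothelial genes (57.1%), 10 of 32 windows of all listed genes (31.2%) and 46.5% of 32851 windows of all genes. The following stretches, from 5 endothelial genes with a single annotated start, show such matches in capitals.

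Tie1: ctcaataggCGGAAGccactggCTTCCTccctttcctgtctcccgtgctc
Flt1: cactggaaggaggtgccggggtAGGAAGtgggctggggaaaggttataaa
Emcn: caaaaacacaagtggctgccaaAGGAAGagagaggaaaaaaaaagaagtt
Eng: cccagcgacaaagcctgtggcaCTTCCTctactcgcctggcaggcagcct
Robo4: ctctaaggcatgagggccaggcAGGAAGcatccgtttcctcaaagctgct

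The stretches lie at chr4:118490041-118490090 on the minus strand (Tie1), chr5:147726037-147726086 on the minus strand (Flt1), chr3:137340963-137341012 on the plus strand (Emcn), chr2:32646521-32646570 on the plus strand (Eng) and chr9:37401901-37401950 on the plus strand (Robo4). Each is written on the strand of its gene and ends before the transcript start. The log2 ratios of these 5 genes ran from -0.46 for Eng, whose other probe set stood at 0.07, to -0.02 for Robo4. The measured pan-endothelial genes whose windows held no match were Kdr (-0.33), Tek (-0.05) and Cldn5 (0.45).

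Of the genes with a RefSeq window, Ednrb was furthest lower and Cldn5 furthest higher in the Cbs null sample, and the 120 bases before their starts are shown for comparison. Their whole windows held none of the motifs searched.

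Ednrb: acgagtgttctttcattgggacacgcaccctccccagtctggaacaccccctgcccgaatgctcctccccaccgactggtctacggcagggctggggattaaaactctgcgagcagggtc
Cldn5: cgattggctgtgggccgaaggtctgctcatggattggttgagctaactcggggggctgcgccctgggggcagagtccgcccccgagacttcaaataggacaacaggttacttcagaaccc

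The Ednrb stretch lies at chr14:103843702-103843821 on the minus strand and the Cldn5 stretch at chr16:18776727-18776846 on the plus strand. The hypoxia response core ACGTG was found in 3 of the 32 windows of listed genes, 1 each of Pdpn, Edn1 and Vegfa, and in 19.6% of all windows. The GATA motif AGATAA was in 5 of 32 windows (15.6%) and 11.2% of all windows. The SOX motifs ACAAAG and ACAATG were in 7 of 32 (21.9%) and 28.6%. Each motif was searched on both strands, no motif contains another, and a match is a description of the letters only.

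The genes that mark endothelium as such were present in both samples. Pecam1, the platelet endothelial adhesion molecule, read 234.0 in control and 253.8 in Cbs null tissue, a log2 ratio of 0.12. Cdh5, the cadherin of endothelial junctions, read 184.0 and 197.0 (0.10), while a second Cdh5 probe set was below the floor on both arrays. Emcn, an endothelial sialomucin of veins and capillaries, read 297.8 and 266.3 (-0.16). All 6 genes listed as endothelial markers (Pecam1, Cdh5, Tie1, Kdr, Emcn and Egfl7) were above the floor on both arrays, with a median log2 ratio of -0.09. Of the 6, 4 had a ratio below 0, Kdr (-0.33) and Tie1 (-0.25) by more than 1 technical SD. The probe sets of Egfl7 differed in sign. None of them was 1.5-fold apart.

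Over the whole pan-endothelial group, 18 of 20 genes were measured, 12 with a ratio below 0 and 6 above. The group's median was -0.10, and 11 of the 18 were within 1 technical SD of 0. Ratios ran from -0.84 for Plvap to 0.65 for Vwf.

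Plvap, which forms the diaphragms of fenestrae and caveolae in permeable capillaries, was the lowest. It read 600.0 in control tissue and 335.3 in Cbs null tissue, 1.79-fold lower. Of all measured genes, 106 had a lower ratio than Plvap. It has 1 probe set, so no second measurement on these arrays bears on it.

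Vwf, the von Willebrand factor gene, whose product tethers platelets, was the highest. It read 328.2 and 514.0, 1.57-fold higher in the Cbs null sample, and 221 measured genes had a higher ratio. It too has a single probe set. Platelets and their precursors also make Vwf. Among platelet and red cell markers, 4 of 9 genes on the array were measured, Pf4 read 195.5 and 217.0, and Hbb-b2 read 89.2 and 77.7. Of these 4, 3 had a ratio above 0, and their median was 0.26. The signal summed over all 9 was 474.7 in the control and 548.9 in the Cbs null sample, and its part in the Vwf value was not tested.

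Cldn5, the claudin of endothelial tight junctions, read 219.5 and 299.0, 1.36-fold higher. Esam, a junctional adhesion molecule, read 462.4 and 512.8, a log2 ratio of 0.15. The junction genes Cdh5, Cldn5, Esam and Pecam1, grouped after their values were seen, all had ratios above 0, only that of Cldn5 by more than 1 technical SD. Ramp2, which pairs with the adrenomedullin receptor, read 575.8 and 597.1 (0.05). Probe sets shared by Ramp2 and Vps25 stood at 0.16 in both cases.

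Of the vascular growth factor receptors, 4 are given together here, grouped after their values were seen. Kdr, the main receptor for VEGF-A signalling, read 293.4 and 233.8, 1.25-fold lower with a log2 ratio of -0.33. Flt1, a high-affinity decoy-like VEGF receptor, read 160.4 and 144.8 (-0.15), and a second probe set stood at -0.19. Its remaining probe set was below the floor on both arrays. The angiopoietin receptor gene Tek read 246.8 and 238.8 (-0.05), and its partner Tie1 read 114.5 and 96.4 (-0.25). All 4 had a ratio below 0, though only Kdr and Tie1 were more than 1 technical SD away. The receptor genes Pdgfrb and Nrp2, described with their own groups, had ratios above 0.

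Eng, the endothelial co-receptor for TGF-beta family ligands, gave readings that differed between its probe sets. The probe set of higher signal read 347.6 and 251.9 (-0.46), and the other read 166.9 and 175.1 (0.07). Egfl7, a matrix protein secreted by endothelium, was likewise unsettled. Its 4 probe sets had log2 ratios of -0.45, -0.20, -0.02 and 0.57, the last from signals of 199.4 and 296.1. The direction of these genes therefore depends on the probe set.

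Nos3, the endothelial nitric oxide synthase gene, read 164.9 and 136.7 (-0.27), more than 1 technical SD below 0. The remaining pan-endothelial genes were within 1 technical SD of 0. Robo4, a guidance receptor of stable vessels, read 100.4 and 99.3 (-0.02). The SOXF transcription factor genes Sox18 and Sox7 read 402.1 and 353.2 (-0.19) and 123.1 and 109.3 (-0.17).

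**Figure D2:**
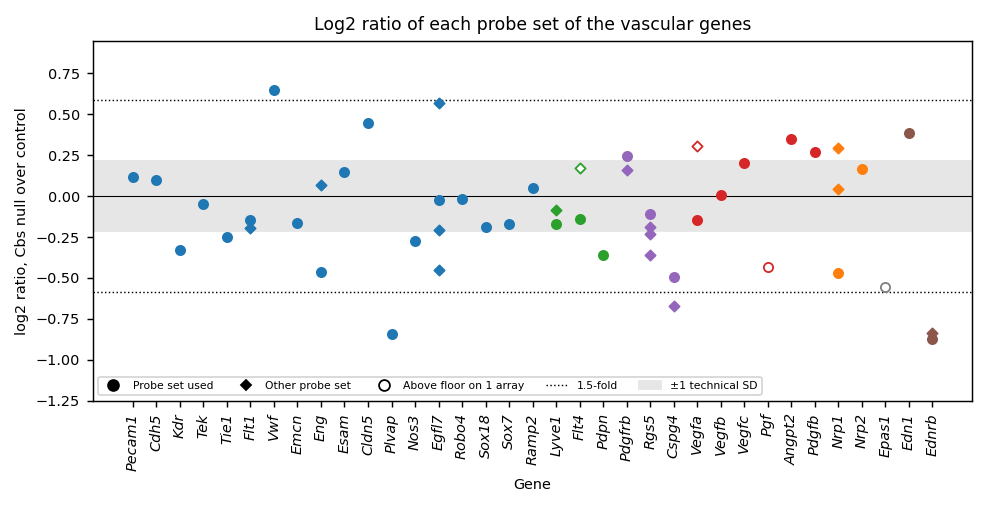
Log2 ratio of Cbs null over control (y axis) for each probe set above the floor on at least 1 array, by gene (x axis, coloured by gene group as in the plot of signals); circles are the probe sets used, diamonds the other probe sets, open symbols those above the floor on 1 array only, the grey band is 1 technical SD either side of 0 and the dotted lines mark 1.5-fold. The probe sets of Ednrb both lie below the lower dotted line, whereas those of Egfl7, Eng and Nrp1 lie on both sides of 0.

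Agreement between probe sets could be examined for 9 genes with at least 2 probe sets above the floor on both arrays. In 6 of them the ratios spanned no more than 0.43, which is 2 technical SDs. The probe sets of Egfl7, Nrp1 and Eng spanned 1.02, 0.76 and 0.53 and differed in sign. The median span was 0.18.

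Of the lymphatic genes, 3 of 5 were measured, and all 3 had a ratio below 0, only that of Pdpn by more than 1 technical SD, with a median log2 ratio of -0.17. Lyve1, a hyaluronan receptor of lymphatic endothelium that some macrophages also carry, read 227.5 and 202.2 (-0.17), and -0.08 in a second probe set. Flt4, the receptor for VEGF-C, read 202.7 and 183.8 (-0.14), and its weaker probe set was above the floor only in the Cbs null sample, at 48.6. The direction of that weaker value was fixed by the floor. With both probe sets averaged the Flt4 ratio was 0.01, a sign that rests on the floored value. Pdpn, podoplanin, which stromal fibroblasts and mesothelium also make, read 939.7 and 733.1 (-0.36), 1.28-fold lower.

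Prox1, the transcription factor that specifies lymphatic identity, was below the floor on both arrays, and no probe set of Mmrn1 was available. The 3 measured genes are each shared with other cells, so lymphatic endothelium itself was not well marked on these arrays. Macrophage markers lay the other way. Of 14 measured pan-leukocyte and macrophage markers, 13 had a ratio above 0, the median was 0.46 and the signal summed over all 17 on the array was 5860.6 in the control and 8281.3 in the Cbs null sample. In that list H2-Aa read 1548.3 and 2125.5 and Cd74 read 1210.5 and 1700.9, both antigen presentation genes. Cd163, Fcgr1 and Itgam were below the floor on both arrays, and the part of macrophages in the Lyve1 value was not tested.

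The pericyte genes did not share a direction. Pdgfrb, the receptor that holds pericytes to the vessel, read 1304.8 and 1548.3 (0.25), with 0.16 in its other probe set. Rgs5, a regulator of G-protein signalling typical of pericytes, read 2739.1 and 2542.1 (-0.11), and its other 3 probe sets ran from -0.36 to -0.19. Cspg4, the NG2 proteoglycan, was lower in both of its probe sets, with 144.9 and 103.0 (-0.49, 1.41-fold) in the one used and 113.7 and 71.4 (-0.67) in the other. The group's median was -0.11. Kcnj8 and Abcc9, subunits of a pericyte potassium channel, both stood at -0.07.

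Smooth muscle cells share several of these genes, and their markers were lower in the Cbs null sample. All 11 measured smooth muscle markers had a ratio below 0, with a median of -0.49. The signal summed over all 12 on the array was 43921.1 in the control and 35064.1 in the Cbs null sample. Acta2 read 9826.1 and 9373.2 and Mylk 6681.8 and 5821.9, the smooth muscle actin and the myosin light chain kinase. The part of smooth muscle in the Cspg4, Rgs5 and Ednrb values was not tested.

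Of the angiogenic ligands, 4 of 6 measured genes had a ratio above 0 (66.7%, compared with 53.3% of all measured genes). Their median was 0.11, or 0.20 over the 5 above the floor on both arrays. Angpt2, the angiopoietin that loosens vessels, read 122.6 and 155.9, 1.27-fold higher in the Cbs null sample. Pdgfb read 113.3 and 136.6 (0.27), and its other probe set was below the floor on both arrays. Vegfc, the lymphatic growth factor, read 60 and 68.9 (0.20), close to the floor. None of these ligands was 1.5-fold apart.

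Vegfa, the principal angiogenic factor, read 263.9 and 238.8 (-0.14). Its weaker probe set was above the floor only in the Cbs null sample, at 53.5, so its value there is fixed in direction. With both averaged the Vegfa ratio was 0.08. Vegfb read 166.7 and 167.9 (0.01), and its ratio was -0.01 with ratios centred on their median or signals quantile normalized. Pgf, the placental growth factor gene, read 58.3 and 39.0, at least 1.35-fold lower.

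The neuropilins are co-receptors for VEGF and semaphorins. Nrp1 read 789.8 and 570.3 (-0.47) in the probe set of highest signal, 515.7 and 532.0 (0.04) in another and 260.3 and 319.1 (0.29) in the third, so its direction is not settled. Nrp2, which also binds VEGF-C, read 333.3 and 373.4 (0.16). Epas1, the endothelial hypoxia-inducible factor HIF-2alpha, read 63.6 and 35.5, at least 1.47-fold lower.

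Within the endothelin system, the ligand gene Edn1 and the receptor gene Ednrb differed in opposite directions. The other receptor gene, Ednra, had no usable probe set. Edn1, the vasoconstrictor endothelin-1 made by endothelium and uterine epithelium, read 121.3 and 158.8, 1.31-fold higher in the Cbs null sample. Ednrb, the endothelin B receptor, read 236.1 and 128.9, 1.83-fold lower with a log2 ratio of -0.87. A second Ednrb probe set read 188.8 and 105.7 (-0.84), so both measurements nearly coincided. Of all measured genes, 95 had a lower ratio than Ednrb, which was the lowest of the 35.

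Uterine epithelium markers were higher in the Cbs null sample beside Edn1. All 12 had a ratio above 0, with a median of 0.61 and a summed signal of 4124.2 in the control and 6308.2 in the Cbs null sample. For Muc1 (41.8 and 121.1) and Cldn4 (37.9 and 77.3) that direction was fixed, because only their Cbs null signal exceeded the floor. The 10 markers that exceeded it in each sample had a median of 0.57. Krt18 read 999.3 and 1625.8 and Krt8 633.6 and 981.0, both keratins of simple epithelium. The part of epithelium in the Edn1 value was not tested.

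**Figure D3:**
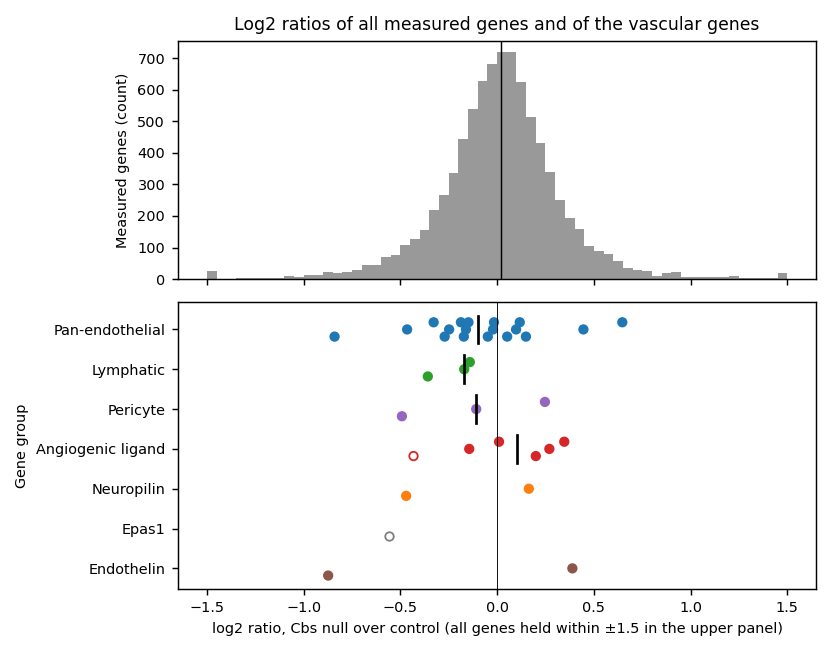
Upper panel, number of measured genes by log2 ratio of Cbs null over control for all 8410 measured genes, with a line at their median of 0.02; lower panel, the 35 measured vascular genes by group on the same axis, open where a gene was above the floor on 1 array only, with a bar at the median of groups of 3 or more. Most vascular genes lie within the main body of the distribution, whereas Plvap and Ednrb lie in its lower tail, with 106 and 95 measured genes below them, and Vwf in its upper tail, with 221 above it.

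Other genes of the same pathways, 125 of 174 listed ones measured, had a median log2 ratio of -0.03, with 58 above 0 and 67 below. At least 2-fold apart were 2 higher, 1 of them Clca1, and 1 lower, beside 0.797% and 0.713% of all measured genes. At 1.5-fold the counts were 8 higher (6.4%) and 6 lower (4.8%), beside 3.64% and 3.41%. Of the lower genes, Jag2 and Unc5b were above the floor in the control sample only, so their direction was fixed by that. Clca1, counted among the higher, does not measure a lymphatic gene, as described below.

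Among 20 other measured endothelial genes, 12 were below 0 and the median was -0.07. The lowest was Clec14a, an endothelial lectin, which read 211.4 and 138.6 (-0.61), with a second probe set above the floor in the control sample only. The highest was Gja4, a gap junction protein of arteries, at 125.0 and 167.9 (0.43). Sele, Esm1, Gja5 and Cyyr1 were below the floor on both arrays. Of 16 measured endothelial transcription factors the median was -0.01, with Sox17 at 801.0 and 1209.7 (0.59) and Gata2 at 311.8 and 436.2 (0.48). Uterine epithelium also makes Sox17, and its markers were higher as given above; their part in the Sox17 value was not tested.

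Notch, ephrin and guidance genes had a median of -0.07 over 22 measured genes. Slit3, a secreted ligand of Robo receptors, was the one gene at least 2-fold apart. It read 252.1 and 120, 2.10-fold lower in the Cbs null sample, in a single probe set. Of the 13 measured BMP and TGF-beta genes the median was 0.02, with Bmp4 at 115.4 and 174.3 (0.59) and Id2 at 562.1 and 768.5 (0.45).

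The list of other lymphatic genes stood at 0.38 over 8 measured genes, opposite in sign to the lymphatic genes above. Its highest value, Clca1 at 148.9 and 342.6 (2.30-fold), does not measure a lymphatic gene. The symbol now denotes a gene of mucus cells, and the lymphatic gene once called by it is now Clca3a1. Without Clca1, left out after its value was seen, the median over 7 genes was 0.34. Of these, 5 lay above 0: Fgl2 (0.73), Gata2 (0.48), Tbx1 (0.42, close to the floor), Thy1 (0.34) and Reln (0.07). The 2 below 0 were Stab1 (-0.16) and Itga9 (-0.22). Stab2, Foxc2, Ackr2 and Maf were below the floor on both arrays. The part of other cell types in these values was not tested. Mural cell genes had a median of -0.07 over 16 genes, with Anpep at 667.7 and 1028.7 (0.62) and Des at 2994.0 and 1868.9 (-0.68). Anpep, an aminopeptidase, is also made by epithelium and myeloid cells, and Des, desmin, by smooth muscle.

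Of 23 other measured angiogenic factors and inhibitors the median was -0.05. The gene at least 2-fold apart was Ang, angiogenin, which read 44.4 and 106.0, 2.39-fold higher, from a control signal just above the floor. In the hypoxia pathway, 9 genes had a median of 0.04. Slc2a1, the glucose transporter GLUT1, read 601.6 and 332.1 (-0.86), and its other 2 probe sets stood at -0.93 and -0.71. Ndrg1, a hypoxia-responsive gene, read 603.3 and 914.3 (0.60), so these targets went opposite ways.

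Of the endothelin pathway, 3 of 6 further genes were measured. Ece1, the enzyme that releases active endothelin, read 462.4 and 474.9 (0.04) in its probe set of higher signal but 328.3 and 173.7 (-0.92) in the other. Ece2, a related enzyme, read 128.7 and 108.9 (-0.24). The other ligands, Edn2 and Edn3, were below the floor in both samples.

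Stromal and decidual markers had a median of -0.15 over 16 genes, or -0.01 over the 13 above the floor on both arrays, with the abundant Col3a1 at 8621.8 and 7666.9 and Dcn at 7026.4 and 8423.7. Of the 16, 10 had a ratio below 0 and 6 above, among the latter Wnt4 (0.48), Hoxa10 (0.19), Hand2 (0.10) and Bmp2 (0.02). The genes of this list furthest apart, named after their values were seen, mark decidual cells. Tdo2, the tryptophan dioxygenase gene, read 685.3 in control and 27.4 in Cbs null tissue, at least 15.9-fold lower. Prl8a2, a decidual gene of the prolactin family, read 424.4 and 5.8, at least 9.82-fold lower. Both lay under the floor in Cbs null tissue only, so their direction was fixed by that. The part of decidual cells in the Plvap, Ednrb and other vascular values was not tested. Mesothelium markers had a median of -0.23 over 6 genes, with Wt1 at 807.1 and 702.8 and Krt19, which epithelium shares, at 230.1 and 428.3. Pdpn lay in the same direction as these mesothelium and stromal medians, and their part in its value was not tested. Of 7 trophoblast markers on the array, Eomes was measured, at 61.4 and 61.6, and Hand1 read 24.0 and 16.5, below the floor.

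**Figure D4:**
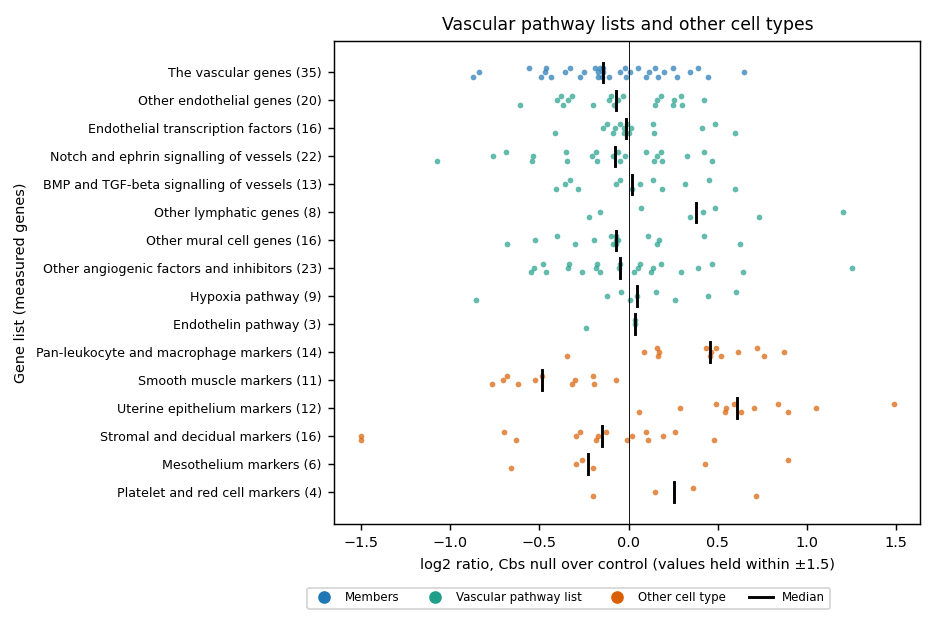
Log2 ratio of Cbs null over control for the 35 measured vascular genes (blue), the lists of other genes of vascular pathways (green) and markers of other cell types (orange), one point per measured gene with a bar at the list's median; values beyond 1.5 are drawn at the edge, the number of genes is in parentheses, and the trophoblast list, with 1 measured gene, is left out. The vascular lists other than that of further lymphatic genes have medians between -0.14 and 0.04, whereas macrophage and epithelial markers lie to the right and smooth muscle markers to the left.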

How the data were processed

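Biotin-labelled cRNA was made from 2 microg of total RNA, per the labels' protocols, and the submitters' processing notes name GCOS (version 1.4). The deposited table holds 1 linear intensity per probe set and array. How signals were summarised and scaled is not given in the sources used here. Means of the deposited intensities after trimming 2% at each end were 200.08 and 200.07, so the authors had brought the arrays to 1 scale and differences are relative to total signal, and the number of arrays limits the precision.

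Of 22690 probe sets, 64 were Affymetrix controls, 20380 had 1 gene symbol, 691 several and 1555 none, and 20351 matched a RefSeq gene (GRCm38.p6). A gene was its 1-symbol probe set of highest mean log2 signal after the floor of 43.2. All listed genes are named with their signals, and of the other lists those at least 2-fold apart, or else the 2 with the largest ratio, and for cell types the 2 of highest signal. Members, gene lists and thresholds were chosen with earlier results of these data known. Motifs and code were run in Python 3.11.15, and the code was tested on simulated data. The alternatives were median centring, quantile normalization, a floor at the 20th or the 60th percentile, a pseudocount of 32, the mean over probe sets, leaving out _s_at, _x_at and _a_at probe sets, and 3-fold in place of 2-fold.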

Additional observations from a re-analysis of the deposited data

How the results depend on the processing

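The counts of vascular genes past 2-fold (0 in either direction) and 1.5-fold kept to within 1.5 times the reported count under each alternative run. Group medians kept their sign but varied: -0.12 to -0.04 for pan-endothelial genes, -0.21 to -0.13 for lymphatic, -0.22 to -0.03 for pericyte genes and 0.07 to 0.20 for ligands. Against the technical SD divided by the square root of the number of genes, a criterion chosen after seeing the data, the pan-endothelial median (-0.04) and that of all vascular genes (-0.078) moved when the floor was the 60th percentile, and the latter (-0.044) with probe sets averaged. Plvap, Ednrb and Vwf were the genes past 1.5-fold under each of them, joined by Epas1 at -0.84 when the floor was the 20th percentile. Of 234 values of single genes under the alternatives, 229 moved by less than the technical SD. The others were Epas1, Cspg4 at -0.27 when the floor was the 60th percentile, a level above its Cbs null signal that left 30 of these genes measured, and Eng at -0.20, Nrp1 at -0.04 and Vegfa at 0.08 with probe sets averaged. The sign turned for Vegfa, Flt4 (0.01) and, under centring or quantile normalization, Vegfb (-0.01). For Vegfa and Flt4 it turned through a weaker probe set above the floor in the Cbs null sample only. The median of all 35 genes lay between -0.16 and -0.04. Over the whole array, the floor moved the counts of genes at least 1.5-fold lower and higher from 287 and 306 to 721 and 768 at the 20th percentile and 152 and 133 at the 60th, and those at least 2-fold apart from 60 and 67 to 218 and 250 and to 31 and 30. No paired analysis was possible because each group has 1 array. Signals near the floor have no reliable order, which limits Vegfc, Pgf and Epas1.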
